A study of Mus musculus with 18 samples.

Results

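A set of 5 transcripts of the atrial and stretch response of the heart, the natriuretic peptide genes Nppa and Nppb, the muscle ankyrin repeat gene Ankrd1, the growth factor gene Bmp10 and the sarcolipin gene Sln, was followed through cardiomyocyte maturation. They were taken by name, after Ensembl identifiers had been matched to symbols, and all 5 were found among the 12048 genes listed for each library. The libraries came from cardiomyocytes of Mlc2vcre:R26REYFP mice, in which Cre recombinase under the promoter of the ventricular light chain gene Mlc2v (Myl2) switches on a yellow fluorescent protein, and every group carried both alleles. Flow sorting gave binucleated and mononucleated cells at E18.5 before birth, at P7 after birth and in the adult, an age that the labels do not state more exactly, giving 6 groups of 3 libraries and 18 libraries together. By its title, the study asked what lies behind the unequal ability of these classes to proliferate. No label states that replicates are separate animals, and the p-values below therefore reflect how far these libraries vary, which could be technical variation.

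Atrial natriuretic peptide, encoded by Nppa, and brain natriuretic peptide, encoded by Nppb, are hormones that heart muscle releases when stretched; they act through guanylyl cyclase receptors to promote salt excretion and vessel relaxation. Nppa is made by atrial and trabecular ventricular muscle before birth and is largely confined to the atria afterwards, and both genes are standard markers of the loaded ventricle. Ankrd1 encodes a titin-binding ankyrin repeat protein of the sarcomere and nucleus that is induced by stretch, Bmp10 encodes a ligand of the bone morphogenetic protein family that the embryonic trabecular myocardium and later the right atrium produce, and Sln encodes a small membrane protein of atrial muscle that inhibits the SERCA calcium pump.

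Counts recovered from the deposited log2 values summed to 14833334 to 22690952 per library. Levels are given as CPM (counts scaled to a library of about 1000000) with the authors' scaling factor for each library, and a group mean has its SD over 3 libraries. Ventricular markers (12 of 12 measured) summed to 9378 to 15780 CPM over the libraries, with none of them at 0 in a group. The atrial light chain Myl7 averaged 262 ± 120 CPM in binucleated and 189 ± 17 CPM in mononucleated cells at E18.5, and at most 25.1 CPM in any library of P7 or the adult. Binucleated replicate 1 at E18.5 stood apart: it had the lowest total and the highest Nppa, Nppb and Myl7 of its group. Markers of other cells moved with the groups as well. At E18.5, 10 measured fibroblast markers summed to 349 to 949 CPM in binucleated and 66.2 to 117 CPM in mononucleated libraries, and 14 endothelial and endocardial markers to 145 to 170 CPM in binucleated and 29.8 to 48.1 CPM in mononucleated libraries. The 5 measured leukocyte markers summed to at most 10.3 CPM in any library, and Laptm5, C1qb and C1qc were at 0 in all mononucleated libraries of E18.5. The part of these cells in the results below was not tested. In such sorted bulk samples, fewer cells of a type and less RNA per cell cannot be told apart.

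Nppa and Nppb lie side by side on chromosome 4, and their promoters are printed because the 2 neighbours took different courses with age. The windows run from 250 bases before to 50 bases after the annotated start (RefSeq, GRCm38.p6), at chr4:148000472-148000771 for Nppa and chr4:147985650-147985949 for Nppb, both on the plus strand and written 5′ to 3′. The deposited values rest on another build, so the windows serve only to show the sequence. Capitals mark the motifs, searched on both strands, so that some read as their reverse complement: GATAA (the core bound by GATA factors), AAGTG (Nkx2-5), CATTCC (TEAD), TCACACC (T-box) and TATAAA.
Nppa: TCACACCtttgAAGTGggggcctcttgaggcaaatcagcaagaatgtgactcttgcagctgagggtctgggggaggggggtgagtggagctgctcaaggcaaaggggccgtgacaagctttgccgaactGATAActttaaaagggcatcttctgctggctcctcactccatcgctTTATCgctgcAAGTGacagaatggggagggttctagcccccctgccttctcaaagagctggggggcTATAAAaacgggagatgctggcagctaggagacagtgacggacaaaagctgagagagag
Nppb: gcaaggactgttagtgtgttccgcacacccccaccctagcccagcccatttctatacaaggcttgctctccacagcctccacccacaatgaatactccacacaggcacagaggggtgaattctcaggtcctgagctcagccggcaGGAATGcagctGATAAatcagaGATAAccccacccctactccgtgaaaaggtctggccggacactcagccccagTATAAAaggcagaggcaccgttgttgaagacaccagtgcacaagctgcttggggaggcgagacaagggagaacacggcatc
Each window held 2 matches to GATAA, which occurs in 25.4% of 32851 promoter windows of this length, and 1 match to TATAAA (13.6% of windows). AAGTG had 2 matches in Nppa and 0 in Nppb (46.4% of windows), and TCACACC had 1 in Nppa and 0 in Nppb (3.98%). CATTCC had 1 match in Nppb and 0 in Nppa (14.7%). None of the marked motifs overlapped another. A match describes these letters and is not evidence of binding, and a missing match says only that the letters are not in the window. Of the other members, Ankrd1 had 1 match to GATAA and Bmp10 had 2.

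Nppa fell steeply with age, and the larger step came after P7. At E18.5 it had 247, 119 and 83.4 CPM in binucleated replicates 1, 2 and 3 (150 ± 85.8), and 206, 195 and 104 CPM in mononucleated replicates (168 ± 56). At P7 it had 33.7, 85.5 and 26.4 CPM in binucleated libraries (48.5 ± 32.2), and 58.1, 130 and 57.7 CPM in mononucleated libraries (82 ± 41.7). In the adult it had 0.827, 4.93 and 4.14 CPM in binucleated libraries (3.3 ± 2.18), and 4.77, 32.7 and 16.2 CPM in mononucleated libraries (17.9 ± 14). The 6 adult libraries were therefore all below the P7 libraries of their class, while P7 and E18.5 ranges met. The order of group means was the same in both classes, E18.5 over P7 over adult, and mononucleated over binucleated at each age.

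**Figure D1:**
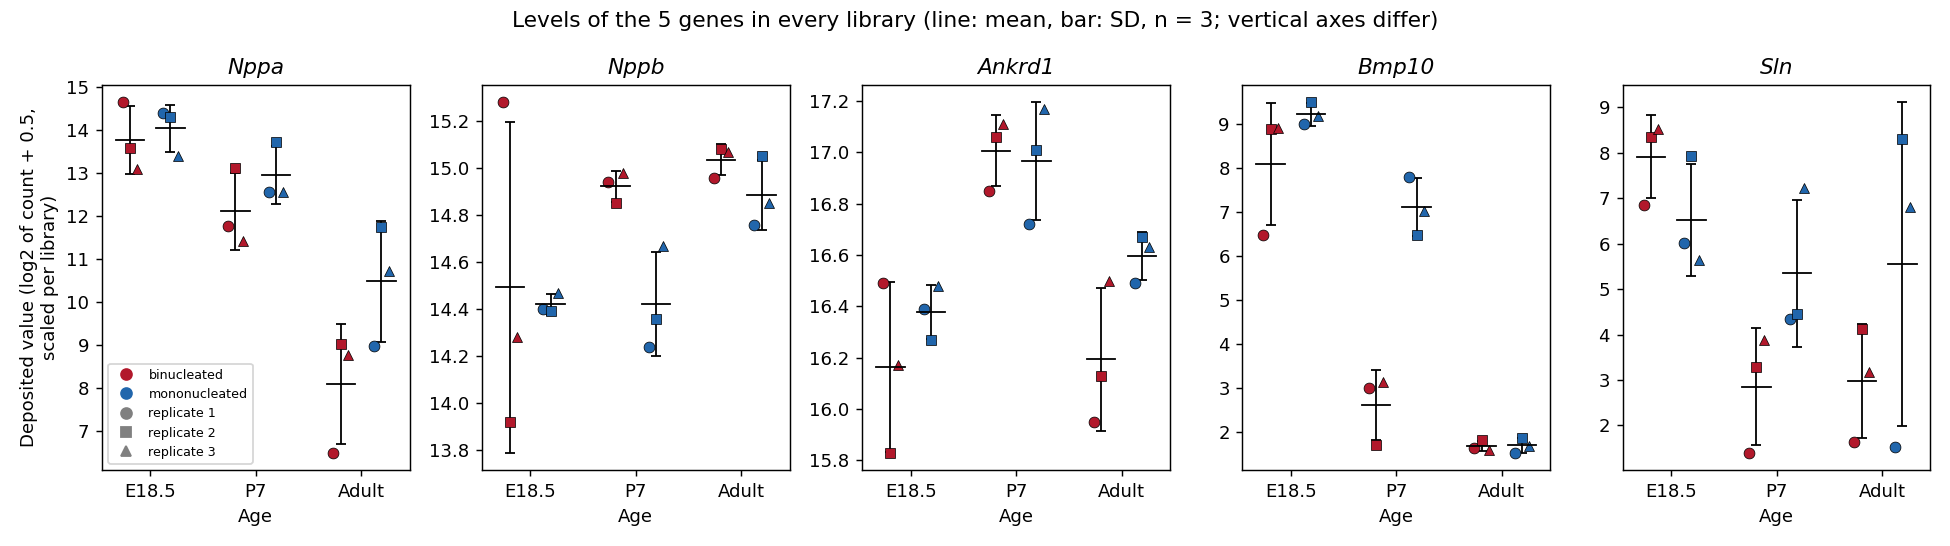
Levels of the 5 genes in each library, as deposited (log2 of the count plus 0.5, scaled per library), by age, for binucleated (red) and mononucleated (blue) cells; lines are means and bars SDs of 3 libraries, and the vertical axes differ between genes. Nppa steps down with age, Nppb stays within a narrow band outside E18.5 binucleated replicate 1, Ankrd1 is highest at P7, and Bmp10 reaches 0 counts in all 6 adult libraries, whose small differences in height come from the offset and the library factor alone.

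Adult Nppa was lower than at P7 in both classes. The log2 fold change was -4.02 ± 0.72 (SE) in binucleated cells, 16.3-fold lower (limma adjusted p = 0.000319), and -2.47 ± 0.72 in mononucleated cells, 5.56-fold lower (limma adjusted p = 0.0108). The mononucleated call was lost without P7 mononucleated replicate 2 (-2.09, adjusted p = 0.0555) or adult mononucleated replicate 1 (-1.72, adjusted p = 0.071). Against E18.5 the adult level was 51.7-fold lower in binucleated cells (log2 fold change -5.69 ± 0.72, limma adjusted p = 4.28e-06) and 11.8-fold lower in mononucleated cells (-3.56 ± 0.72, adjusted p = 0.000533). The first postnatal step was smaller and missed the threshold: -1.67 ± 0.72 in binucleated cells (95% interval -3.19 to -0.15, limma adjusted p = 0.0803) and -1.09 ± 0.72 in mononucleated cells (-2.61 to 0.43, adjusted p = 0.337). The binucleated step was called without P7 binucleated replicate 2 (-2.17, adjusted p = 0.0471) or adult binucleated replicate 1 (-1.67, adjusted p = 0.0475), with voom weights (-1.67, adjusted p = 0.0228) and on log2(CPM + 1) values (-1.64, adjusted p = 0.0461). The mononucleated step was called in a fit of the compared groups only (-1.09, adjusted p = 0.0338). P7 libraries enter both steps, so the steps are not independent of each other.

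Within an age, Nppa was lower in binucleated than in mononucleated libraries of the same replicate number in 8 of 9 pairs, E18.5 replicate 1 being the exception. The ratio of binucleated to mononucleated was 0.58, 0.656 and 0.457 at P7 and 0.173, 0.151 and 0.256 in the adult. Adult groups overlapped only through mononucleated replicate 1, at 4.77 CPM, which lay below binucleated replicate 2, at 4.93 CPM. Replicate 1 was the lowest library of both adult classes and replicate 2 the highest. Without pairing, the adult class difference was -2.39 ± 0.72 (5.24-fold lower, unadjusted p = 0.00425) and did not pass over all genes (limma adjusted p = 0.61). At P7 and in the adult, equal numbers were taken to pair the libraries, because such libraries deviated together in these same data. A fit blocked on those pairs called the same difference (limma adjusted p = 0.0335). A block on the number over all ages did not (limma adjusted p = 0.408). The fit blocked on pairs at P7 and in the adult called 0.108% of genes lower and 0.0083% higher in adult binucleated cells. Nppa was the 1 member among them. The class differences were -0.26 ± 0.72 at E18.5 (limma adjusted p = 0.864) and -0.84 ± 0.72 at P7 (adjusted p = 0.894). Whether the class difference itself changed between P7 and the adult was tested and not called (-1.55 ± 1.02, 95% interval -3.70 to 0.60, limma adjusted p = 1).

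**Figure D2:**
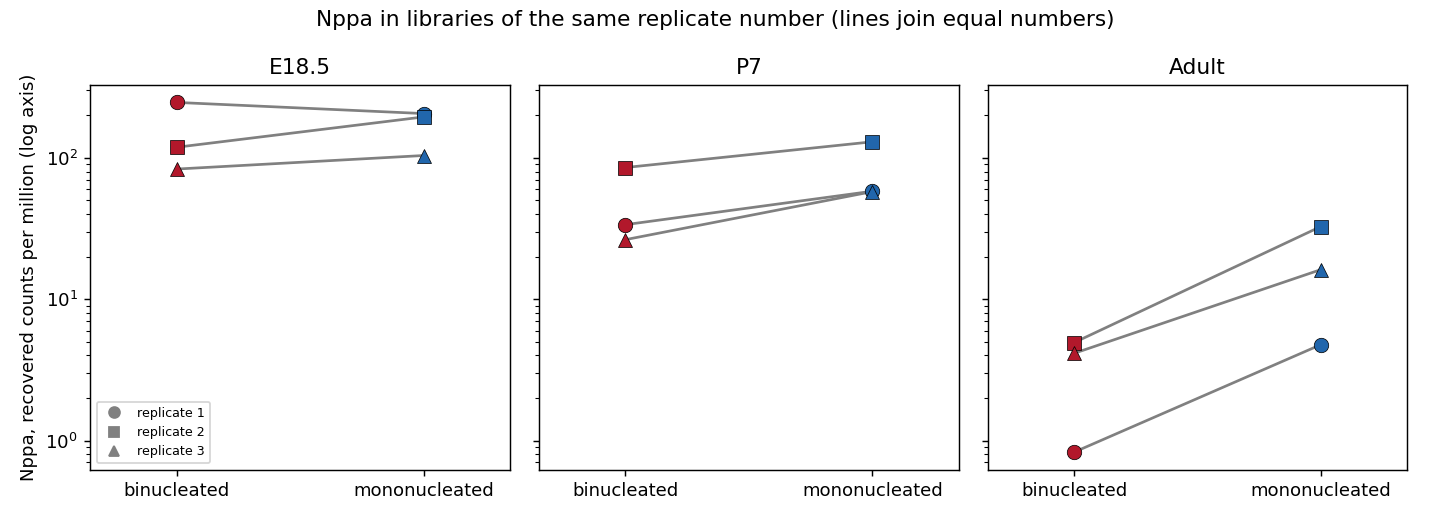
Nppa in CPM (log axis) in binucleated (left of each panel) and mononucleated libraries, with lines joining libraries of the same replicate number. All 3 lines slope up to the mononucleated library at P7 and in the adult, where the binucleated libraries are at 0.151 to 0.256 of their mononucleated counterparts.

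Nppb took no part in this decline. At E18.5 it had 379, 148 and 190 CPM in binucleated libraries (239 ± 123), and 206, 206 and 216 CPM in mononucleated libraries (209 ± 5.98). At P7 it had 300, 283 and 310 CPM in binucleated libraries (297 ± 13.7), and 185, 201 and 248 CPM in mononucleated libraries (211 ± 33). In the adult it had 305, 330 and 330 CPM in binucleated libraries (321 ± 14.6), and 266, 324 and 283 CPM in mononucleated libraries (291 ± 30.1). The E18.5 binucleated group alone was wide, because of replicate 1.

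None of the age steps of Nppb passed the threshold. Adult against E18.5 gave 0.54 ± 0.23 in binucleated cells (95% interval 0.06 to 1.03, limma adjusted p = 0.0531) and 0.47 ± 0.23 in mononucleated cells (-0.02 to 0.96, adjusted p = 0.0961). Without E18.5 binucleated replicate 1 the difference was 0.94 in binucleated cells (adjusted p = 6.51e-06) and 0.47 in mononucleated cells (adjusted p = 0.00141), and both were then called higher in the adult; the mononucleated one was also called without E18.5 binucleated replicate 2 (adjusted p = 0.0415). P7 against E18.5 gave 0.43 ± 0.23 in binucleated cells (limma adjusted p = 0.155; 0.82 and 7.35e-05 without E18.5 binucleated replicate 1) and 0.00 ± 0.23 in mononucleated cells (adjusted p = 0.995). Adult against P7 gave 0.11 ± 0.23 in binucleated cells (limma adjusted p = 0.744) and 0.47 ± 0.23 in mononucleated cells (adjusted p = 0.118; 0.00199 without E18.5 binucleated replicate 1). Whether Nppb was called higher with age thus rested largely on this library, also in comparisons of mononucleated cells that do not contain it but share the estimate of spread. The P7 classes did not overlap, with every binucleated library above every mononucleated one, but the difference of 0.50 ± 0.23 (1.42-fold) did not pass over all genes (unadjusted p = 0.0443, limma adjusted p = 0.464; 0.0138 without E18.5 binucleated replicate 1). This P7 difference was also called with array weights and with the compared groups only (lowest limma adjusted p = 0.000909). The class differences at E18.5 (0.07 ± 0.23, limma adjusted p = 0.881) and in the adult (0.15 ± 0.23, adjusted p = 1) had intervals that include 0 (-0.41 to 0.56 at E18.5 and -0.34 to 0.63 in the adult). At E18.5 the sign turned without binucleated replicate 1 (-0.32).

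As levels per kilobase of exon, Nppb exceeded Nppa in all 18 libraries. The per-length ratio of Nppb to Nppa was 1.11 to 2.52 over the E18.5 libraries, 3.66 to 13 in binucleated and 1.71 to 4.77 in mononucleated libraries at P7, and 74.1 to 408 in binucleated and 11 to 61.7 in mononucleated libraries of the adult. The ratio was thus higher in every adult than in every fetal library, and in the adult the classes did not overlap.

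The nearby genes named here did not move together. Nppb and Nppa start 14.8 kilobases apart, with 0 annotated genes between them. On the far side of Nppa, the chloride and proton exchanger gene Clcn6 fell in the adult against E18.5, by 1.33 ± 0.24 (log2) in binucleated cells (limma adjusted p = 0.000157) and fell by 1.5 ± 0.24 in mononucleated cells (adjusted p = 5.76e-05). On the Nppb side, the collagen lysyl hydroxylase gene Plod1 rose by 0.94 ± 0.12 in binucleated cells (limma adjusted p = 5.83e-06) and 0.61 ± 0.12 in mononucleated cells (adjusted p = 0.000446). The mitochondrial fusion gene Mfn2 rose by 1.59 ± 0.28 in binucleated cells (adjusted p = 0.00014) and 0.88 ± 0.28 in mononucleated cells (adjusted p = 0.015).

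**Figure D3:**
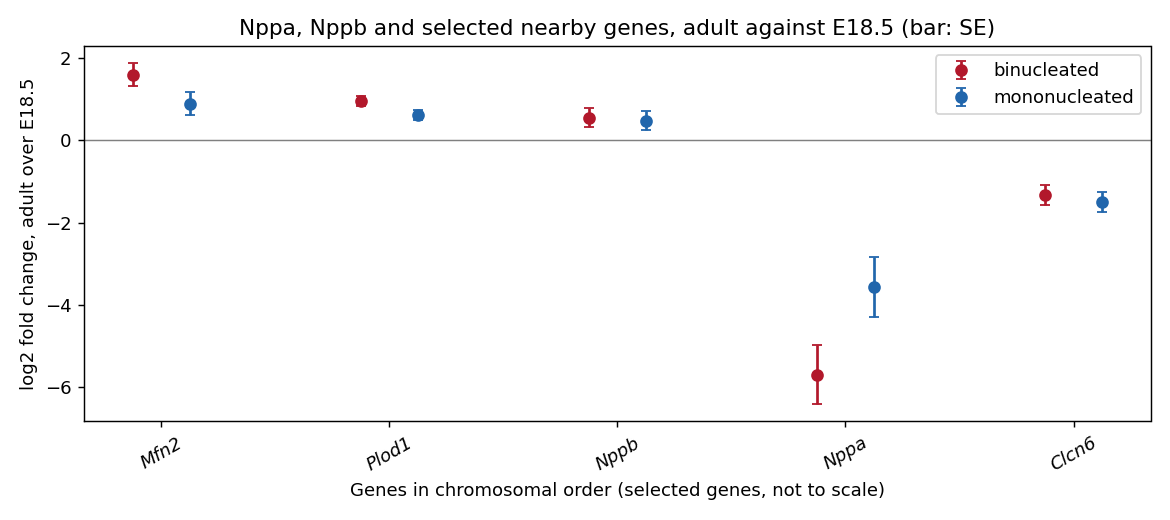
Log2 fold change of adult over E18.5 with its SE for Nppa, Nppb and 3 nearby genes, drawn in chromosomal order but not to distance, in binucleated (red) and mononucleated (blue) cells. Nppa lies at -5.69 in binucleated and -3.56 in mononucleated cells, and adjacent Nppb at 0.54 in binucleated and 0.47 in mononucleated cells.

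Ankrd1 was highest at P7 in both classes. At E18.5 it had 878, 557 and 706 CPM in binucleated libraries (713 ± 161), and 822, 754 and 874 CPM in mononucleated libraries (817 ± 60.2). At P7 it had 1133, 1308 and 1351 CPM in binucleated libraries (1264 ± 116), and 1034, 1262 and 1406 CPM in mononucleated libraries (1234 ± 188). In the adult it had 604, 686 and 885 CPM in binucleated libraries (725 ± 145), and 883, 994 and 966 CPM in mononucleated libraries (948 ± 58). Each P7 library lay above every library of the other 2 ages in its class.

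The rise to P7 was 0.85 ± 0.17 in binucleated cells (1.8-fold, limma adjusted p = 0.00105) and 0.59 ± 0.17 in mononucleated cells (1.5-fold, adjusted p = 0.0215). The mononucleated call was lost without E18.5 mononucleated replicate 1 (0.59, adjusted p = 0.0538) or 2 (0.53, 0.0879), without P7 mononucleated replicate 2 (0.56, 0.0697) or 3 (0.49, 0.103), and under quantile normalization (0.37, 0.0574). Adult binucleated cells fell back by 0.82 ± 0.17 against P7 (1.76-fold lower, limma adjusted p = 0.0011). In mononucleated cells the adult difference from P7 was -0.37 ± 0.17 (adjusted p = 0.0903), which was called without E18.5 binucleated replicate 1 (-0.37, 0.0331) or P7 mononucleated replicate 1 (-0.49, 0.0449), after quantile normalization (-0.91, 3.86e-05), with array weights (-0.40, 0.00459) and with the compared groups only (-0.37, 0.0362). Adult and E18.5 levels differed by 0.03 ± 0.17 in binucleated cells (95% interval -0.33 to 0.39, limma adjusted p = 0.895) and 0.22 ± 0.17 in mononucleated cells (-0.14 to 0.57, adjusted p = 0.297). That comparison depends on scaling: after quantile normalization Ankrd1 was lower in the adult, at -0.62 in binucleated cells (adjusted p = 0.000761) and -0.55 in mononucleated cells (adjusted p = 0.00239). The 3 same-numbered pairs of the adult all had less Ankrd1 in the binucleated library, at 0.684, 0.69 and 0.916 of the mononucleated level, and adult binucleated replicate 3, at 885 CPM, lay just above mononucleated replicate 1, at 883 CPM. The adult class difference of -0.40 ± 0.17 did not pass (unadjusted p = 0.0292, limma adjusted p = 1). At E18.5 (-0.22 ± 0.17, adjusted p = 0.529) and at P7 (0.04 ± 0.17, adjusted p = 0.995) the classes did not differ beyond their spread.

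Bmp10 was a fetal transcript that was at or near 0 in binucleated cells at P7, still present in mononucleated cells at that age, and at 0 in both classes of the adult. Its recovered counts at E18.5 were 13, 115 and 118 in binucleated libraries (3.31 ± 2.15 CPM), and 114, 181 and 122 in mononucleated libraries (5.77 ± 1.05 CPM). At P7 they were 1, 0 and 1 in binucleated libraries, and 49, 18 and 21 in mononucleated libraries (1.4 ± 0.662 CPM). In the adult all 3 binucleated and all 3 mononucleated libraries had 0 counts, which allows up to 0.0608 CPM over the binucleated and 0.0612 CPM over the mononucleated group (3 counts over each). The P7 classes were wide apart, and the low E18.5 value was again that of binucleated replicate 1.

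In the fit of all 18 libraries as deposited, without weights or a replicate block, the P7 class difference was the 1 class difference called among the 5 genes. Summed over libraries, 2 counts in binucleated against 88 in mononucleated cells gave a 38.3-fold lower level (exact 95% counting interval 10.3 to 321; such intervals cover counting error only). On the deposited scale, whose offset of 0.5 holds back folds of such low counts, the difference was -4.50 ± 0.71 (limma adjusted p = 0.00174). It was called in each of 18 fits that left out 1 library (adjusted p 0.00023 to 0.0142), and not on log2(CPM + 1) values (-1.18, adjusted p = 0.0577). Within the P7 comparison 2.06% of all genes were called lower and 0.0664% higher in binucleated cells, and 1 of 5 members was lower and 0 higher. At E18.5 the same difference was -1.13 ± 0.71 (limma adjusted p = 0.453). The change of the class difference between E18.5 and P7 was -3.38 ± 1.00 (unadjusted p = 0.00378) and did not pass (limma adjusted p = 0.0976), whereas without E18.5 binucleated replicate 1 it did (-4.18, adjusted p = 0.013).

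With age, Bmp10 fell between E18.5 and P7 in binucleated cells, where 2 against 246 counts gave a 98.8-fold lower level (27.1 to 820 at 95%, by counting error; on the deposited scale -5.49 ± 0.71, limma adjusted p = 2.18e-05). In the same comparison 9 of 10 fibroblast markers fell, and their sums of 349, 901 and 949 CPM at E18.5 ran in the order of the Bmp10 counts. Mononucleated libraries of E18.5 had lower fibroblast sums (66.2 to 117 CPM) and a higher Bmp10 mean (5.77 against 3.31 CPM). The part of fibroblasts was not tested. In mononucleated cells 88 against 417 counts gave a 4.08-fold lower level (3.23 to 5.19; limma -2.11 ± 0.71, adjusted p = 0.047). This second call was near the threshold: it was lost in 15 of 18 fits that left out 1 library, with adjusted p from 0.0119 to 0.17, and held without E18.5 binucleated replicate 1 or 2 or P7 binucleated replicate 2. The adult bounds that follow take 3 counts over the group as the floor and the earlier counts as exact. Adult mononucleated cells had at least a 23.3-fold lower level than at P7 (limma adjusted p = 1.23e-05) and at least 95-fold lower than at E18.5 (adjusted p = 1.67e-07). Adult binucleated cells had at least a 60.5-fold lower level than at E18.5 (limma adjusted p = 9.1e-07). With counting error on both sides, the exact 95% upper limits of the ratio to the earlier level were weaker bounds. They were 0.0539 against P7 and 0.013 against E18.5 in mononucleated cells, and 0.0205 against E18.5 in binucleated cells. No fold is given between P7 and adult binucleated cells, or between adult classes, since both sides had 3 counts or fewer.

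Some genes of trabeculae and conduction cells, and 2 targets of bone morphogenetic protein signalling, shared the P7 class difference. The gap junction gene Gja5, of atrial, trabecular and Purkinje muscle, had 18.9, 12.1 and 26.8 CPM in binucleated and 233, 83.2 and 146 CPM in mononucleated libraries at P7 (-2.95 ± 0.45, limma adjusted p = 0.00148). Its order among the 3 mononucleated libraries, replicate 1 over 3 over 2, was that of Bmp10. At E18.5 the orders matched in binucleated libraries only. There mononucleated replicate 2 had the least Gja5 (26.8 CPM) and the most Bmp10 (6.92 CPM) of its group. Mononucleated Gja5 was also lower at E18.5 (38.7, 26.8 and 42.2 CPM) than at P7, whereas Bmp10 was higher. The transcription factor gene Etv1 (-2.13 ± 0.23, limma adjusted p = 0.000132) and the guidance factor gene Slit2 (-2.73 ± 0.38, adjusted p = 0.000627) were lower in binucleated cells too. Of 17 measured conduction and trabecular markers, 7 were lower and 0 higher (median -1.38, all genes 0.02), and Id2, given below, is 1 of the 7. Of all genes, 2.06% were called lower and 0.0664% higher. In the list of bone morphogenetic protein ligands, receptors, Smads and targets, 2 of 23 measured genes were lower and 0 higher (median -0.36, all genes 0.02). Both were targets of the pathway: Id1 had 0.606, 0.806 and 0.676 CPM in binucleated and 2.21, 1.91 and 2.39 CPM in mononucleated libraries (-1.60 ± 0.37, limma adjusted p = 0.0293), and Id2 differed by -1.38 ± 0.28 (adjusted p = 0.0137). These targets did not follow Bmp10 at the other ages. At E18.5 Id1 was higher in binucleated libraries (8.72, 7.23 and 9.15 CPM) than in mononucleated libraries (1.5, 5.2 and 3.38 CPM), whereas mean Bmp10 was lower. In the adult, with Bmp10 at 0 counts, Id1 had 3.73 to 7.05 CPM and Id2 60.2 to 92.4 CPM over both classes. Markers of endothelium and endocardium, tissues that also use bone morphogenetic protein signalling, summed to 25.9 to 28.2 CPM in binucleated and 26.3 to 43.4 CPM in mononucleated libraries at P7 (median class difference over 14 markers -0.39). The type II receptor gene Bmpr2 averaged 2.91 ± 1.08 CPM in binucleated and 2.32 ± 0.317 CPM in mononucleated cells at P7 (limma adjusted p = 0.956). Acvrl1, the type I receptor for Bmp10 that endothelium carries, was at or below 0.13 CPM in every P7 library. Tcap, which encodes the titin cap protein known to bind Bmp10, rose with age in both classes, by 2.51 ± 0.17 in binucleated cells (limma adjusted p = 3e-09) and 2.63 ± 0.17 in mononucleated cells (adjusted p = 2.28e-09) between E18.5 and the adult.

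**Figure D4:**
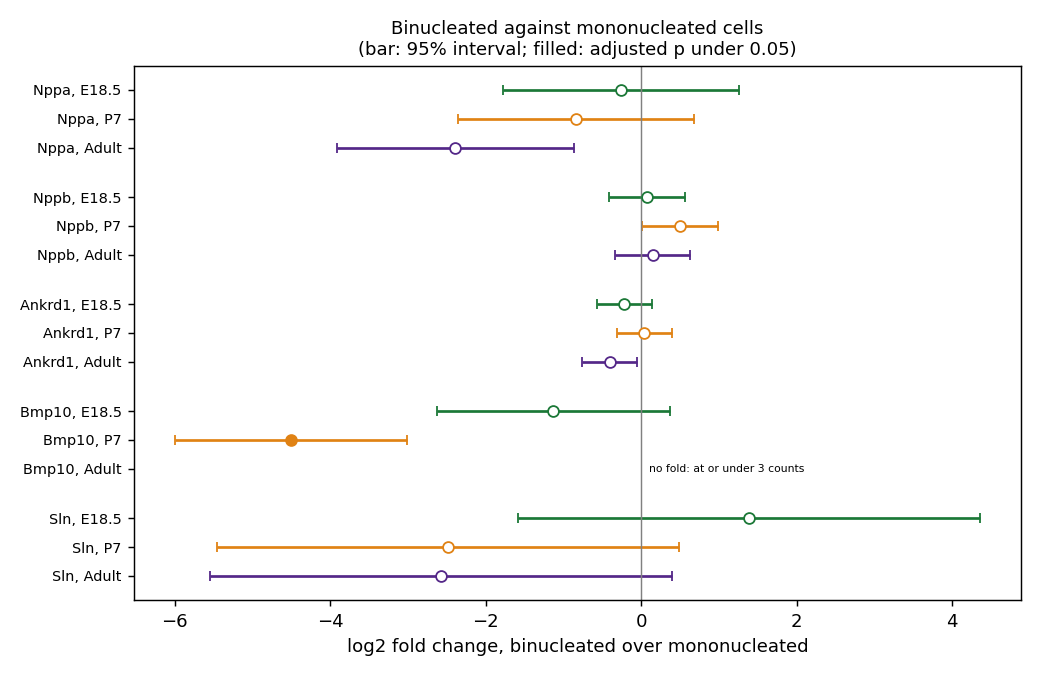
Log2 fold change of binucleated over mononucleated cells with its 95% interval for each gene, with a colour for each age; filled points passed a limma adjusted p of 0.05. Bmp10 at P7, at -4.50, is the 1 filled point, and the adult Nppa interval (-3.91 to -0.87) lies below 0 although its adjusted p over all genes was 0.61.

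Sln was low and uneven. Its recovered counts at E18.5 were 17, 79 and 90 in binucleated libraries (2.56 ± 1.3 CPM), and 14, 60 and 10 in mononucleated libraries (1.11 ± 1.02 CPM). At P7 they were 0, 1 and 2 in binucleated libraries, and 4, 4 and 24 in mononucleated libraries (0.585 ± 0.702 CPM). In the adult they were 0, 2 and 1 in binucleated libraries, and 0, 43 and 17 in mononucleated libraries (1.34 ± 1.51 CPM). Single mononucleated libraries carried most of the counts after birth.

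In binucleated cells Sln fell between E18.5 and P7, 3 against 186 counts giving a 49.8-fold lower level (16.8 to 244 at 95%, by counting error; limma -5.06 ± 1.4, adjusted p = 0.0104). The adult binucleated level was 45.8-fold below that of E18.5 (15.4 to 224; limma -4.94 ± 1.4, adjusted p = 0.00642), and no fold is given between adult and P7, with 3 counts on each side. Markers of other cells were lower at P7 than at E18.5 in the same binucleated libraries: 9 of 10 fibroblast markers fell (median -5.37, all genes 0.03), as did 13 of 14 endothelial and endocardial (median -2.90) and 5 of 5 epicardial markers (median -6.04). Fibroblast markers summed to 49.8, 56.4 and 65.9 CPM at P7 and 349, 901 and 949 CPM at E18.5 in binucleated replicates 1, 2 and 3, and at E18.5 Sln had the same order of libraries. The part of these cells in the Sln values was not tested. In mononucleated cells the differences were -1.18 ± 1.4 for P7 against E18.5 (limma adjusted p = 0.628), 0.20 ± 1.4 for the adult against P7 (adjusted p = 0.925), and -0.98 ± 1.4 for the adult against E18.5 (adjusted p = 0.579). The adult differences ranged from -1.18 to 2.21 against P7 and from -2.36 to 1.03 against E18.5 when 1 library was left out, so that neither had a fixed direction. The class differences were 1.39 ± 1.4 at E18.5 (limma adjusted p = 0.608), -2.49 ± 1.4 at P7 (adjusted p = 0.644) and -2.57 ± 1.4 in the adult (adjusted p = 1). Counting error alone would place adult binucleated cells 20.1-fold lower (3 against 60 counts, 6.57 to 100), but libraries of the same class ranged from 0 to 43 counts.

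At E18.5, binucleated replicate 1 had the most Myl7 (401 CPM) and the fewest Sln counts (17) of its group. In mononucleated cells of that age, replicate 2 had the most of both. After birth, the atrial light chain Myl7 was highest in the library of each group that had the most Sln. At P7 it had 1.51, 1.43 and 3.72 CPM in binucleated, and 2.95, 2.98 and 25.1 CPM in mononucleated libraries, where replicate 3 also had the most Sln. In the adult it had 0.118, 0.6 and 0.287 CPM in binucleated, and 0.11, 4.49 and 0.612 CPM in mononucleated libraries, whose order, replicate 2 over 3 over 1, was that of Sln and also of Nppa. Nppa did not follow Myl7 at P7. There replicate 3 had the most Myl7 in both classes, and in binucleated cells the least Nppa (26.4 CPM). In mononucleated cells Nppa was about equal in replicate 3 (57.7 CPM) and replicate 1 (58.1 CPM). The second atrial light chain, Myl4, had 1.18, 2 and 2.41 CPM in adult binucleated, and 2.69, 4.84 and 3.18 CPM in adult mononucleated libraries, with no overlap of the classes (-0.94 ± 0.36, limma adjusted p = 1). Over all 18 libraries, log2 deviations of Nppa from its group means correlated with those of Myl4 at r = 0.74. The same r was 0.50 with Myl7 and 0.49 with the ventricular Myl2. The part of atrial muscle or of its transcripts in the Nppa and Sln values was not tested. Over 17 measured atrial markers, the median adult class difference was -0.55 (all genes 0.00), and their summed level was 2351 to 2781 CPM in binucleated and 2271 to 2761 CPM in mononucleated libraries. Between E18.5 and the adult, 4 of the 17 rose and 8 fell in binucleated cells, and 6 rose and 6 fell in mononucleated cells. Among all genes 28.3% rose and 29.4% fell in binucleated cells, and 26.2% rose and 27.7% fell in mononucleated cells. Myl4 fell by 7.86 ± 0.36 in binucleated cells (limma adjusted p = 2.73e-11) and fell by 6.53 ± 0.36 in mononucleated cells (adjusted p = 3.24e-10), while the ventricular light chain Myl2 differed by 0.06 ± 0.21 in binucleated cells (limma adjusted p = 0.822) and 0.28 ± 0.21 in mononucleated cells (adjusted p = 0.291).

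**Figure D5:**
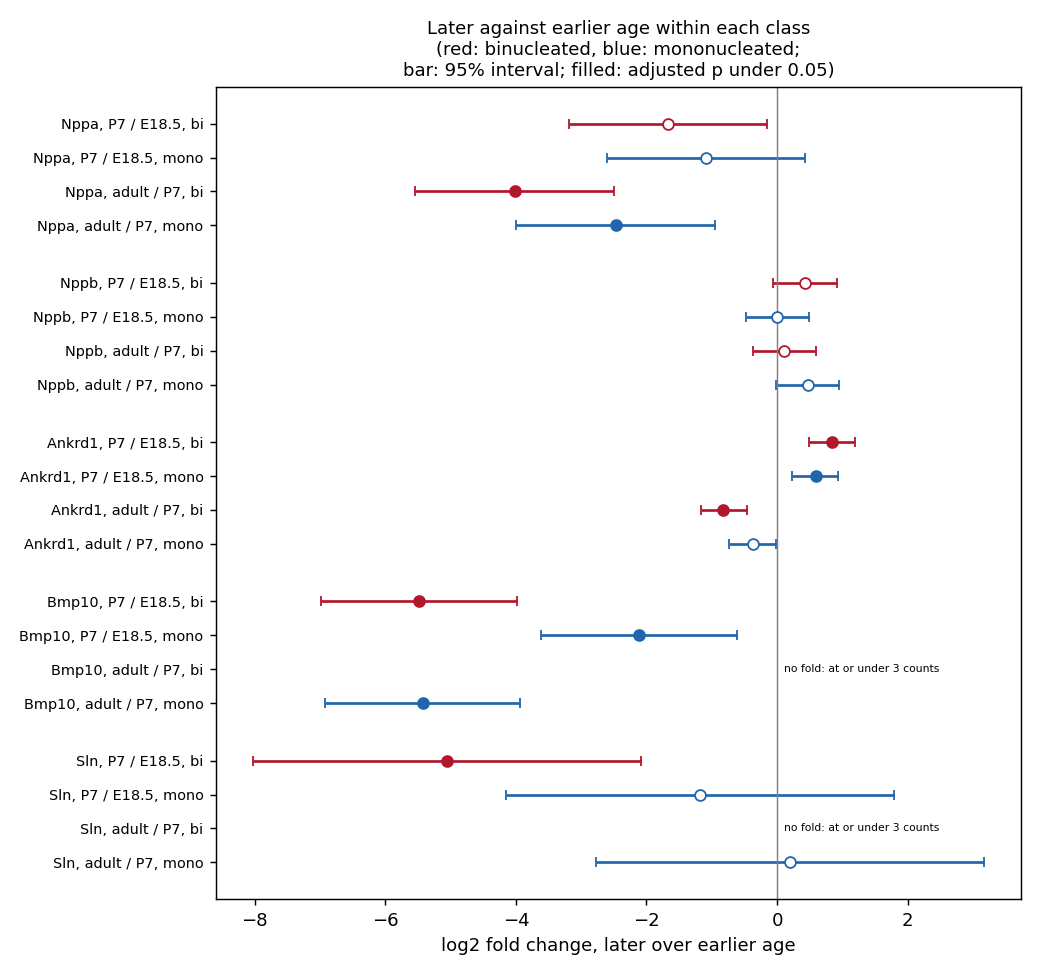
Log2 fold change of P7 over E18.5 and adult over P7 with 95% intervals in binucleated (red) and mononucleated (blue) cells; filled points passed a limma adjusted p of 0.05. Nppa moves mainly in the second step, Bmp10 in the first step in binucleated and in both in mononucleated cells, and Ankrd1 up and then, in binucleated cells, down by 0.82.

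Counts of calls among the members are read against the share of all genes called. At E18.5, 0 of 5 members differed between classes (limma; 0 at an unadjusted p under 0.05), where 0.739% of all genes were higher and 0.0664% lower in binucleated cells. In the adult, 0 of 4 with a fold were called (2 at an unadjusted p under 0.05, Nppa and Ankrd1), where 0.0083% of all genes were higher and 0.083% lower. Between E18.5 and P7, 1 of 5 members rose and 2 fell in binucleated cells, where 18.2% of all genes rose and 17.7% fell. In mononucleated cells 1 rose and 1 fell, where 10.7% of all genes rose and 7.84% fell. Between P7 and the adult, 0 rose and 2 of 3 with a fold fell in binucleated cells (17.3% and 19.7% of all genes). In mononucleated cells 0 rose and 2 of 5 fell (19.1% and 22.3% of all genes). Between E18.5 and the adult, 0 rose and 3 of 5 fell in binucleated cells (28.3% and 29.4% of all genes), and 0 rose and 2 of 5 fell in mononucleated cells (26.2% and 27.7%). With so many genes called between ages, a count of 2 or 3 among 5 members is not a result about them as a group. The change of the class difference from E18.5 to P7 was called for 0 of 5 (1 at an unadjusted p under 0.05, Bmp10), where 0.232% of all genes were called higher and 2.1% lower. From P7 to the adult it was called for 0 of 4 (0 at an unadjusted p under 0.05), where 0.208% were higher and 0% lower.

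Genes that mature, sense and degrade the natriuretic peptides or act downstream of them moved in both directions with age. Corin, the cell-surface protease that activates the Nppa prohormone, averaged 529 ± 66.1 CPM in adult binucleated and 561 ± 26.3 CPM in adult mononucleated cells, against 169 ± 83.9 CPM in binucleated and 200 ± 27.9 CPM in mononucleated cells at E18.5. That was a rise of 1.81 ± 0.32 in binucleated cells (limma adjusted p = 0.000129) and 1.49 ± 0.32 in mononucleated cells (adjusted p = 0.000798). Furin, the protease that cleaves the Nppb prohormone, did not pass in either class (0.73 ± 0.52, limma adjusted p = 0.24, in binucleated cells; 0.77 ± 0.52, adjusted p = 0.227, in mononucleated cells). Npr2, the receptor of C-type natriuretic peptide, rose by 2.33 ± 0.17 in binucleated cells (limma adjusted p = 5.65e-09) and by 1.70 ± 0.17 in mononucleated cells (adjusted p = 2.86e-07). Mme, which encodes the peptide-degrading enzyme neprilysin, rose by 4.60 ± 0.61 in binucleated cells (limma adjusted p = 7.68e-06) and by 4.91 ± 0.61 in mononucleated cells (adjusted p = 4.41e-06). Pde9a, a phosphodiesterase of cyclic GMP, fell by 5.29 ± 0.73 in binucleated cells (limma adjusted p = 1.09e-05) and fell by 3.10 ± 0.73 in mononucleated cells (adjusted p = 0.00185). Ide, a peptidase that degrades natriuretic peptides, fell by 0.68 ± 0.22 in mononucleated cells (limma adjusted p = 0.0182) and differed by -0.14 ± 0.22 in binucleated cells (adjusted p = 0.602). Npr3, the clearance receptor, averaged 5.47 ± 2.19 CPM at E18.5, 0.375 ± 0.272 at P7 and 6.31 ± 2.21 in the adult in binucleated cells, and 1.02 ± 0.72 CPM at E18.5, 0.201 ± 0.135 at P7 and 8.69 ± 2.88 in the adult in mononucleated cells. It fell at P7 against E18.5 in binucleated cells (-4.07 ± 0.75, limma adjusted p = 0.00059) and not past the threshold in mononucleated cells (-2.08 ± 0.75, adjusted p = 0.0667). Npr3 is also an endocardial marker, and the 14 endothelial and endocardial markers likewise summed lower at P7 (25.9 to 43.4 CPM in all 6 libraries) than in the adult (156 to 206 CPM in all 6). Of 9 measured genes in a list of 16, 3 rose and 1 fell between E18.5 and the adult in binucleated cells (median 0.37, all genes -0.02), and 4 rose and 2 fell in mononucleated cells (median 0.77, all genes -0.01). Among all genes 28.3% rose and 29.4% fell in binucleated cells, and 26.2% rose and 27.7% fell in mononucleated cells. The main receptor gene Npr1 was not analysed here.

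The partners of Ankrd1 and Sln mostly rose with age. Ankrd23, another muscle ankyrin repeat gene, averaged 836 ± 17.7 CPM in adult binucleated and 793 ± 107 CPM in adult mononucleated cells, against 40.5 ± 3.17 CPM in binucleated and 60.6 ± 2.4 CPM in mononucleated cells at E18.5 (4.37 ± 0.13 with limma adjusted p = 5.62e-13 in binucleated cells, 3.70 ± 0.13 with adjusted p = 3.96e-12 in mononucleated cells). Unlike Ankrd1 it went on rising after P7, by 1.18 ± 0.13 in binucleated cells (limma adjusted p = 3.27e-06) and 1.46 ± 0.13 in mononucleated cells (adjusted p = 2.51e-07). Of 9 measured genes in the ankyrin repeat list, 6 rose and 0 fell between E18.5 and the adult in binucleated cells (median 0.70), and 7 rose and 0 fell in mononucleated cells (median 0.84). Among all genes 28.3% rose and 29.4% fell in binucleated cells, and 26.2% rose and 27.7% fell in mononucleated cells. Atp2a2, the cardiac calcium pump that Sln and phospholamban inhibit, rose by 2.03 ± 0.24 in binucleated cells (limma adjusted p = 1.87e-06) and 1.45 ± 0.24 in mononucleated cells (adjusted p = 7.97e-05). Pln, the gene of phospholamban, rose by 1.09 ± 0.14 in binucleated cells (limma adjusted p = 6.2e-06) and 1.17 ± 0.14 in mononucleated cells (adjusted p = 3.45e-06). In levels per kilobase, Pln averaged 1818 CPM per kilobase in adult binucleated and 1829 CPM per kilobase in adult mononucleated cells, where Sln averaged 0.0482 CPM per kilobase in binucleated and 1.01 CPM per kilobase in mononucleated cells. Atp2a1 and Ankrd2 were not analysed here.

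Factors known to act on the promoters of these genes moved in both directions. Gata4 differed between E18.5 and the adult by 0.43 ± 0.22 in binucleated cells (limma adjusted p = 0.101) and -0.17 ± 0.22 in mononucleated cells (adjusted p = 0.539). Srf differed by 0.27 ± 0.20 in binucleated cells (limma adjusted p = 0.255) and 0.17 ± 0.20 in mononucleated cells (adjusted p = 0.495). Nkx2-5 fell by 0.66 ± 0.19 in binucleated cells (limma adjusted p = 0.00671) and fell by 0.58 ± 0.19 in mononucleated cells (adjusted p = 0.0159). Tbx5, an activator of Nppa, rose by 0.66 ± 0.23 in binucleated cells (limma adjusted p = 0.0187) and by 0.83 ± 0.23 in mononucleated cells (adjusted p = 0.00516). Hey2, a repressor that marks compact ventricular muscle, fell by 4.70 ± 0.29 in binucleated cells (limma adjusted p = 1.15e-09) and fell by 5.09 ± 0.29 in mononucleated cells (adjusted p = 6.04e-10). Hand1, a factor of embryonic left ventricle, had 0 counts in all 6 adult libraries. Klf15, which restrains cardiac hypertrophy genes, rose by 1.79 ± 0.18 in binucleated cells (limma adjusted p = 3.72e-07) and by 1.52 ± 0.18 in mononucleated cells (adjusted p = 2.97e-06). Of all genes, 28.3% rose and 29.4% fell in binucleated cells, and 26.2% rose and 27.7% fell in mononucleated cells. Of 27 measured factors, 5 rose and 8 fell in binucleated cells (median -0.07, all genes -0.02), and 4 rose and 10 fell in mononucleated cells (median -0.16, all genes -0.01). Immediate early and dissociation genes moved with age beside them: 18 of them summed to 5730 to 9145 CPM in adult libraries and 1354 to 3599 CPM at E18.5, and their part in the stretch-induced genes was not tested.

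Genes whose profile over the 18 libraries lay nearest to each member, by the root mean square difference of log2 values after each profile was centred on its mean, differed between members. For Nppa they were Ceacam15 (0.71), Pld5 (0.78), Pdpn (0.79), Zfp760 (0.87) and Nckap5l (0.88), against a root mean square of 2.23 for Nppa itself. For Nppb, whose own value was only 0.36, they were Mrps18a, Acot13, Ndufab1 and Atp5c1 (0.13 each) and Gabarapl2 (0.14). For Ankrd1 (0.38) they were Kyat1 (0.21), Camk1 and Lipo3 (0.22 each), 3830406C13Rik and Gmpr (0.23 each). For Bmp10 (3.21) they were Stac2 (1.07), Mest (1.09), Plppr5 (1.16), Gipr and Gucy1a1 (1.20 each). For Sln (2.37) the nearest, Rcn3, was still 1.48 away, followed by Chst12 (1.54), Fmod (1.58), Nphp4 (1.59) and Dzip1 (1.60). No member was among the 5 nearest of another: Nppb was 2.43 from Nppa, and Nppb and Ankrd1, the pair with the smallest distance, were 0.46 apart. That distance exceeded the root mean square of Nppb (0.36) and of Ankrd1 (0.38), so it does not show a shared course. By rank among all genes, Ankrd1 was number 3033 from Nppb and Nppb number 2282 from Ankrd1, whereas Nppa was number 378 from Sln.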

How the data were processed

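RNA of sorted mouse cardiomyocytes was measured in 18 libraries, 3 in each of 6 groups. Per the labels' protocols, cells were sorted into Trizol-LS, RNA was extracted with phenol and chloroform and an RNeasy micro kit, and a TruSeq stranded mRNA kit and a SMARTer amplification kit served for the libraries. Per the submitters' processing notes, STAR, limma and build mm9 were used; their counter, annotation and filters are not stated in these sources. The authors deposited log2 values, and each equals log2 of a whole count plus 0.5 times 1 factor per library (100% within 0.001 of a whole number). CPM levels use those factors, set so that the geometric mean of summed CPM is 1000000, since the constant is not stated. Symbols came from GENCODE M21 (11927 identifiers matched, 121 did not).

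One linear model of the 6 group means was fitted to the deposited values with limma 3.58.1 (R 4.3.3), with empirical Bayes moderation and trend (12 residual degrees of freedom), for 11 contrasts, two-sided, adjusted by Benjamini and Hochberg over 12048 genes at 0.05, and was tested on simulated data. Same-numbered libraries deviated together at P7 (r 0.182 to 0.236) and in the adult (0.261 to 0.327), so numbers were taken to pair them there. At E18.5 r was lower (0.0545 to 0.158) and its lowest value missed the cut used for pairing. Those values still lay above all differently numbered pairs of E18.5 (-0.0949 to 0.00177). Deviations cancel within a group, so a positive r of equal numbers lowers the others, and this order is no separate support. Pairing at that age is not excluded. The labels do not state what a number shares. Genes named beyond the members are preset partners and, per list, contrast and direction, up to 2 with the smallest adjusted p. Members and lists were chosen with earlier results of these data known; the library order of Gja5, Myl7 and Myl4 beside the members was noted after their values were seen. Of the preset partners with values, 1 is not reported here. Intervals of count ratios are exact (95%). Alternatives were leaving out each library, replicate blocks, quantile normalization, array weights, voom weights, the compared groups only, log2(CPM + 1) and a filter at 1 CPM in 3 libraries.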

Additional observations from a re-analysis of the deposited data

How the results depend on the processing

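Of the members' log2 fold changes with 1 library left out, 864 kept direction and side of the threshold, 12 became called, 21 lost their call and 21 turned; under the other alternatives these numbers were 372, 19, 3 and 9. Called members at P7 between classes numbered 1, against 2 with array weights or compared groups only and 0 on log2(CPM + 1); leaving out 1 library gave 1 to 2. Called members between P7 and E18.5 in mononucleated cells numbered 2, against 1 with quantile normalization and 1 with a replicate block over all ages, 3 with compared groups only, and 0 to 2 with 1 library left out. Adult against P7 in mononucleated cells gave 2, against 4 with array weights or compared groups only, and 1 to 4 with 1 library left out. The change of class difference from E18.5 to P7 gave 0, against 2 with array weights and 0 to 2 with 1 library left out, the 2 being without E18.5 binucleated replicate 1. The replicate block raised adult class calls from 0 to 1, Nppa (adjusted p = 0.00355 with age and number, 0.0335 at paired ages only; 0.408 and not called with number over all ages), and changed no other call but the 1 named above.

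Directions turned, none of them called in the main fit, with array weights for Nppb at E18.5 between classes (-0.19), Ankrd1 at P7 between classes (-0.02) and Nppb at P7 against E18.5 in mononucleated cells (-0.02). They turned with quantile normalization for Ankrd1 at P7 between classes (-0.19), Nppb at P7 against E18.5 in mononucleated cells (-0.06), Nppb in the adult against P7 in binucleated cells (-0.13), and Ankrd1 in the adult against E18.5 in mononucleated (-0.55) and binucleated cells (-0.62), and on log2(CPM + 1) for Sln in the adult against E18.5 in mononucleated cells (0.03). With 1 library left out, class differences ranged from -0.32 to 0.36 for Nppb and -0.70 to 0.09 for Nppa at E18.5, and from -0.08 to 0.14 for Ankrd1 at P7. In mononucleated cells, Nppb at P7 against E18.5 ranged from -0.12 to 0.10, and Sln from -1.18 to 2.21 against P7 and -2.36 to 1.03 against E18.5 in the adult. Ankrd1 in the adult against E18.5 in binucleated cells ranged from -0.14 to 0.19, and the change of the Sln class difference from P7 to the adult from -2.09 to 1.30. The causes were not tested. Depth limits Bmp10 and Sln: 3 counts correspond to 0.115 to 0.207 CPM in a library, so class differences below that level were not detectable.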

Other observations

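Other genes of the fetal and load-induced muscle program split in the same cells. Between E18.5 and the adult, 9 of 16 measured genes rose and 5 fell in binucleated cells (median 0.70, all genes -0.02), and 9 rose and 5 fell in mononucleated cells (median 0.62, all genes -0.01). Among all genes 28.3% rose and 29.4% fell in binucleated cells, and 26.2% rose and 27.7% fell in mononucleated cells. The slow skeletal troponin gene Tnni1 fell by 11.26 ± 0.35 in binucleated cells (limma adjusted p = 6.04e-13) and fell by 11.09 ± 0.35 in mononucleated cells (adjusted p = 1.41e-12). The smooth muscle actin gene Acta2 fell by 2.97 ± 0.2 in binucleated cells (limma adjusted p = 2.16e-09) and fell by 2.21 ± 0.2 in mononucleated cells (adjusted p = 9.47e-08). Xirp2, an actin-binding gene of the intercalated disc, rose by 6.42 ± 0.33 in binucleated cells (limma adjusted p = 1.09e-10) and by 5.51 ± 0.33 in mononucleated cells (adjusted p = 8.3e-10).

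At E18.5, 1 of 17 measured genes of the atrial marker list differed between classes, the potassium channel gene Kcna5. It had 2.1, 3.22 and 1.6 CPM in binucleated and 0.513, 0 and 0 CPM in mononucleated libraries (5.19 ± 0.98, limma adjusted p = 0.0171), without overlap, whereas Nppa, Sln and Myl7 overlapped between these classes. Of all genes, 0.739% were called higher in this comparison. Markers of other cells were higher in the same binucleated libraries, 6 of 10 for fibroblasts, 7 of 14 for endothelium and endocardium and 4 of 5 for leukocytes, and their part was not tested. Kcna5 also had the group pattern of the endothelial and endocardial sum, with 0.0466 to 0.434 CPM at P7 and 2.09 to 3.53 CPM in the adult over both classes.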
